A study of Mus musculus with 48 samples.

Results

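The cytosolic ribosome is built from a large and a small subunit, each a scaffold of ribosomal RNA clothed with ribosomal proteins whose genes carry the prefixes Rpl (large) and Rps (small). The 86 genes described here were taken by symbol from the deposited gene table: every Rpl or Rps gene with a number and an optional suffix, the acidic stalk genes Rplp0, Rplp1 and Rplp2, and Rpsa. They comprise 53 large subunit and 33 small subunit genes among 35870 genes in all. The 12 symbols with a -ps suffix, which mark pseudogenes, were left out. The choice went by symbol alone, though it was made with earlier results of these data known.

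The libraries came from wild type male C57BL/6 mice in a study of ageing and of microglial renewal. RNA was measured in microglia sorted from brain by flow cytometry as Cd11b+ Cd45+ cells, and in whole spinal cord. Each tissue had 3 groups of 8 libraries, 48 in all: young (3 months, vehicle), old (23 months, vehicle) and old repopulated (23 months, 5 days of a Csf1r inhibitor followed by 7 days of recovery). Csf1r is the receptor on which microglia depend for survival, and blocking it removes most of them until they are renewed. The sort gate also admits other Cd11b+ myeloid cells, and whole cord holds neurons, glia, vessels and root tissue. Whether each library is a separate animal is not stated in the labels, so the p-values below measure the spread between libraries.

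Total counts ranged from 15909868 to 34496308 per library. All 8 microglial markers, Csf1r, P2ry12 and Tmem119 among them, exceeded a mean of 1 CPM (counts scaled to a common library total by TMM, a standard normalisation) in each of the microglia groups, with summed levels of 50768 to 59276 CPM in young libraries, 35491 to 43517 in the old group and 34771 to 42784 in repopulated libraries. One cord library, repopulated replicate 6, stood apart: 11.4% of its counts lay in other genes as short as ribosomal protein genes, against 5.01% to 5.70% in the other repopulated cord libraries, and its read-weighted mean gene length was 4000 bases against 5018 to 5196. Cord results are therefore given with and without it.

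Most vertebrate ribosomal protein mRNAs start with a C followed by an unbroken run of pyrimidines, the 5′ terminal oligopyrimidine (TOP) tract. Through this tract the mTORC1 kinase and the RNA-binding protein Larp1 control their translation together, and the transcripts of several translation factors carry it too. The starts of 6 members, from RefSeq on GRCm38.p6, are shown because they include typical members and the paralogs that the results turn on. Each line holds 30 bases before the listed start and 20 from it, 5′ to 3′ on the gene's own strand. Capitals mark the first stretch, from a C within 10 bases of the start, that reads as C and at least 4 further pyrimidines. Other pyrimidines may precede that C, as in Rps27l and Rpl22l1.
Rpl13a (chr7:45128726-45128775, minus strand): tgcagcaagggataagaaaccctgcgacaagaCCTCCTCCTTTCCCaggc
Rps6 (chr4:86857348-86857397, minus strand): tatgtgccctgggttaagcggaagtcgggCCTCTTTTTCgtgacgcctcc
Rplp0 (chr5:115559437-115559486, plus strand): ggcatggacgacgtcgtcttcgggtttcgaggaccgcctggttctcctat
Rpl22 (chr4:152325696-152325745, plus strand): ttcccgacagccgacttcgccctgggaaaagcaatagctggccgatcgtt
Rpl22l1 (chr3:28805478-28805527, plus strand): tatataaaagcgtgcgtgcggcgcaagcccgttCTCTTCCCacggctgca
Rps27l (chr9:66946056-66946105, plus strand): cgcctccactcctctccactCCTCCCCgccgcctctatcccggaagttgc

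Rpl13a and Rps6, both classical TOP transcripts, carried a run of 14 and 10 pyrimidines that began within 2 bases of the listed start. No such stretch began within 10 bases of the starts of Rplp0 and Rpl22. For Rpl22 and Rps27l, 2 starts are listed and the first is shown. Of the 86 members, 65 had a listed start. Searched on the gene's strand, a C followed by at least 4 letters that are C or T began at the start base itself in 14 of 65 members (21.5%) and in 3.01% of the 27025 genes listed. Within 2 bases on either side the shares were 33.8% and 10.6%, and within 10 bases 40 of 65 members (61.5%) and 34.4% of genes had one. A C inside a longer run counted. These windows were chosen after the sequences had been seen, and an annotated start need not be the start used in these tissues.

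In microglia, transcripts of nearly all tested ribosomal protein genes were higher in old than in young libraries and higher again after repopulation. Members held 2.35% ± 0.211 of all counts in young microglia (SD, n = 8, range 2.11% to 2.79%), 3.46% ± 0.736 in old microglia (n = 8, 2.13% to 4.62%) and 5.62% in repopulated microglia (n = 8, 5.25% to 6.37%). Every repopulated library lay above every old library, whereas old and young libraries overlapped through old replicate 7, the lowest old library at 2.13%. The share in repopulated microglia was 2.39 times that in young microglia by counts. In spinal cord the share was lower, at 1.01% ± 0.0722 in young, 1.13% ± 0.0315 in old and 1.41% ± 0.715 in repopulated libraries (n = 8 each). Without replicate 6, which alone reached 3.17%, the repopulated cord share was 1.16% ± 0.0625 (n = 7).

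The large and small subunits moved largely together. The ratio of summed large to summed small subunit counts was 1.35 ± 0.0270 in young, 1.33 ± 0.0567 in old and 1.33 in repopulated microglia (n = 8 each). With all libraries in, the group means thus differed by less than the spread between libraries. Young microglia ranged from 1.30 to 1.38. The ratio was 1.53 ± 0.0179, 1.52 ± 0.0124 and 1.50 ± 0.0293 in young, old and repopulated cord (n = 8 each), and 1.51 ± 0.00813 in repopulated cord without replicate 6 (n = 7). Old microglia replicate 7 had a ratio of 1.46, above the 1.27 to 1.33 of the other old libraries. Those other old libraries all lay below the young median of 1.35, so the closeness of the old and young means rests in part on replicate 7. Cord replicate 6 had a ratio of 1.43, below the 1.50 to 1.53 of the other repopulated cord libraries.

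**Figure D1:**
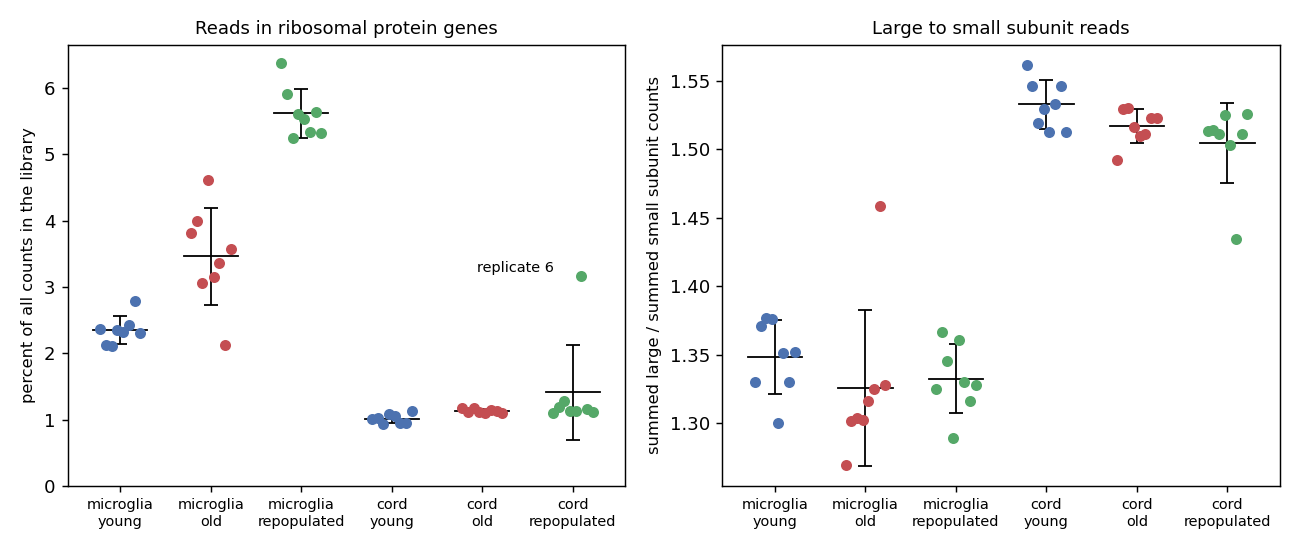
Left, the percent of each library's counts that fell in ribosomal protein genes; right, the ratio of summed large to summed small subunit counts (axis not from 0). Points are libraries (8 a group), lines are means and bars are SD; repopulated microglia sit at 5.25% to 6.37%, above all other libraries, and cord replicate 6 stands at 3.17%.

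The gene-by-gene tests (edgeR quasi-likelihood, adjusted over all genes tested, called under 0.05) covered 83 of the 86 members in each tissue. Rpl10l and Rpl32l were too low to be tested in either tissue, Rpl3l in microglia and Rpl39l in cord. Between old and young microglia, 77 of 83 members rose and 0 fell, at a median log2 change of 0.52, where 11% of all 14382 genes tested rose, 10.7% fell and their median change was -0.01. At an unadjusted p under 0.05, 80 rose and 0 fell, where 15% of genes tested rose and 16.4% fell. By subunit, 47 of 50 large subunit genes rose (median 0.51) and 30 of 33 small subunit genes rose (median 0.57).

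The largest age rises among called members were those of Rpl23, Rpl22l1, Rpsa and Rpl32. Rpl23, whose protein also binds the p53 regulator Mdm2, was at 256, 286 and 369 CPM in young libraries (lowest, median, highest) and at 283, 489.6 and 683 CPM in old ones. It rose 1.72-fold (log2 0.78 ± 0.12 SE, adjusted p = 5.39e-06). Rpsa, a small subunit protein that doubles as a laminin receptor, stood at 429.4, 479.9 and 547 CPM in young and 505, 783 and 1151 CPM in old libraries, a rise of 1.70-fold. With an offset for gene length, described below, Rpsa led the called members (log2 0.71), followed by Rps20 (0.67), Rpl23 and Rps24 (0.62 each), with Rpl22l1 at 0.46 and Rpl32 at 0.36. The ranges of young and old libraries overlapped for Rpl23 and Rpsa. Only Rpl4, at 608 to 717 CPM in young and 732 to 1203 CPM in old libraries, showed no overlap, against 4.12% of all genes tested that were higher without overlap.

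Old replicate 7 was the lowest of the 8 old libraries for 79 of 83 tested members, and lay below the median young library for 72. Neither count was made over all genes tested, so how far it is particular to members is not known. With replicate 7 left out, the number of members whose old and young ranges did not overlap went from 1 to 28. Of all genes tested, 5.4% were then higher without overlap. With each library left out in turn, the number of members called higher ranged from 72 to 80.

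Repopulated microglia exceeded old microglia for 78 of 83 members, 0 were lower, and the median log2 change was 0.87 against -0.04 over all genes tested, of which 9.05% rose and 7.2% fell (4.12% rose with total-count scaling, which moved that median to -0.21 and called 78 members higher). At an unadjusted p under 0.05, 79 were higher and 0 lower, where 14.4% of genes tested were higher and 14.2% lower. The libraries of both groups did not overlap for 72 of 83 members, against 2.09% of genes tested. The changes spanned 47 of 50 large subunit genes (median 0.91) and 31 of 33 small subunit genes (median 0.85).

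Rpl32, Rpl10a and Rpl35 had the largest rises. Rpl32 stood at 218, 401 and 553 CPM in old libraries and at 747, 878 and 1186 CPM in repopulated ones, with no overlap. Its rise was 2.29-fold (log2 1.19 ± 0.13 SE, adjusted p = 4.51e-08). Rpl10a, a protein at the L1 stalk of the large subunit, moved from 158, 253 and 348 CPM to 453, 550.5 and 704 CPM, 2.24-fold. Rpl35, which lies near the exit of the peptide tunnel, rose 2.18-fold, from 64.4, 117 and 166 CPM to 213, 244 and 288 CPM. In both of these genes each repopulated library again exceeded each old one. With the length offset Rpl15 (log2 1.06), Rpl10a (1.05) and Rpl29 (1.04) led, and Rpl32 stood at 0.81 and Rpl35 at 0.71.

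Several members have known roles outside the ribosome or in disease. Rpl5 and Rpl11, which with 5S RNA can bind Mdm2 and restrain it, rose 1.451-fold and 1.398-fold with age and a further 1.74-fold and 1.90-fold with repopulation (adjusted p = 8.55e-08 and 4.22e-07 for the second step). Rps6, the substrate of S6 kinase and a customary readout of mTORC1, stood at 184 CPM in the median young library, 296 in old and 516 in repopulated libraries. Rps19 and Rps14, 2 small subunit genes known from inherited and acquired anaemias, rose 1.95-fold and 1.81-fold with repopulation. Rps27a, whose product is made as a fusion with ubiquitin, rose 1.96-fold. Rpl13a, a component of a complex that silences inflammatory mRNAs, rose 1.88-fold, from 339.9 to 809.8 CPM in old libraries to 941 to 1245 CPM in repopulated ones.

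**Figure D2:**
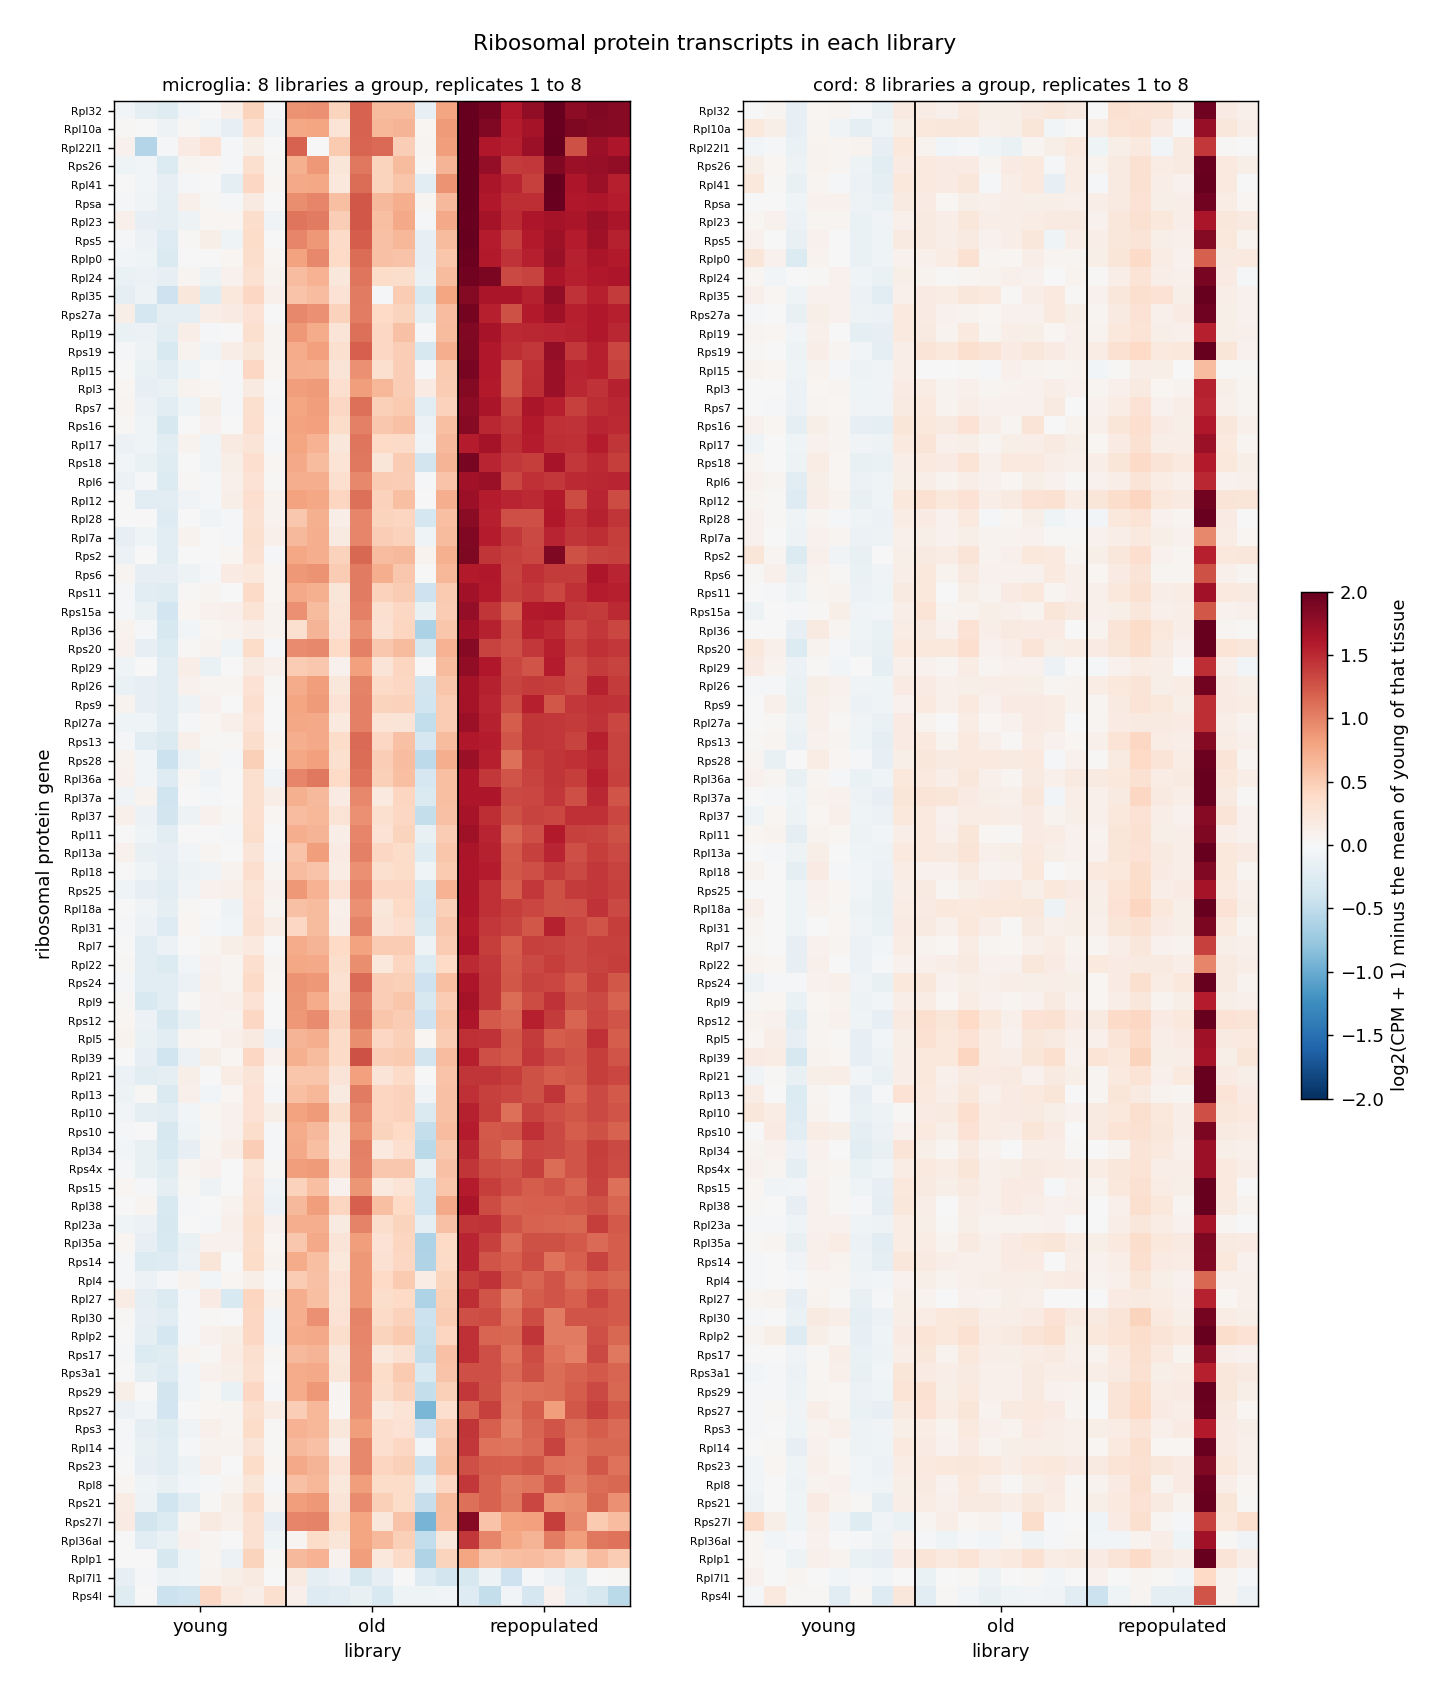
Rows are members tested in both tissues (81 are shown and 1 is not), each column 1 library in order of replicate number within young, old and repopulated groups; colour is log2(CPM + 1) minus the mean of the young libraries of that tissue. Old microglia replicate 7 (the seventh old column) is pale or blue in most rows, repopulated microglia are red throughout except for Rpl7l1 and Rps4l, and in cord the dark red column is repopulated replicate 6.

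From young to repopulated microglia, 81 of 83 members rose, 0 fell, and the median log2 change was 1.41 (all genes tested: -0.06; 16.1% rose, 16.5% fell). At an unadjusted p under 0.05, 1 member was lower, Rps4l, where 21% of genes tested were lower. The rise was at least 2-fold for 80 members, and for 875 of all 14382 genes tested. The ranges did not overlap for 79 members, against 7.2% of genes tested that were higher without overlap. Rpl32 changed most, 3.70-fold (log2 1.89 ± 0.13 SE), followed by Rpl10a (3.62-fold), Rpl22l1 (3.54-fold) and Rps26 (3.29-fold). With the length offset Rpsa (log2 1.66), Rps15a and Rpl10a (1.59 each) led, and Rpl32 stood at 1.16, Rpl22l1 at 1.13 and Rps26 at 0.92. The comparison shares its repopulated and young libraries with the other comparisons, so it is not separate evidence of either step.

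The acidic stalk, through which elongation factors are recruited, is formed by Rplp0, Rplp1 and Rplp2. Rplp0 rose 1.99-fold from old to repopulated microglia (log2 0.99 ± 0.12 SE, adjusted p = 2.45e-07), with 612, 1019 and 1485 CPM in old and 1872, 2061 and 2665 CPM in repopulated libraries. Rplp2 rose 1.62-fold (adjusted p = 0.000152). Rplp1 was at 553, 1119 and 1489 CPM in old and 1138, 1257 and 1449 CPM in repopulated libraries, a log2 difference of 0.19 ± 0.13 SE that did not pass the test (adjusted p = 0.327). The repopulated range of Rplp1 lies wholly within its old range, and whether its change differs from that of Rplp0 was not tested. Between repopulated and young microglia Rplp1 rose 1.49-fold (adjusted p = 0.000512), but with the length offset described below the log2 difference was -0.18 and did not pass (adjusted p = 0.0583). Rplp1 had the highest level per length of all members in each of the 6 groups, with a mean of 4421, 5429 and 5303 TPM (the deposited unit that divides counts by gene length) in young, old and repopulated microglia.

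The remaining members that did not pass the test in a microglia step were mostly paralogs or lowly expressed copies. Rpl7l1, which resembles Rpl7 and is known for a role in ribosome assembly in the nucleolus, stood at 89.4, 99.7 and 114 CPM in young, 77.6, 88.6 and 113 CPM in old and 74.8, 92.7 and 102 CPM in repopulated libraries. Its log2 differences were -0.15 ± 0.08 SE (old against young, adjusted p = 0.192) and 0.00 ± 0.08 (repopulated against old, adjusted p = 0.998). Limma on log2(TPM + 1), which scales by length and total, called Rpl7l1 lower in the second step (log2 -0.25), where its median over all genes was -0.21. Rps4l, a copy of Rps4x, gave log2 differences of -0.16 ± 0.12 SE with age and -0.13 ± 0.12 with repopulation, neither past the test. With the length offset Rps4l was called lower in repopulated than in young microglia (log2 -0.63, adjusted p = 0.000176). Rps27 and Rpl36al missed the threshold with age (adjusted p = 0.122 and 0.0581) and rose with repopulation (log2 0.87 and 0.67). Rps27l, known as a p53 target, missed it in both steps (log2 0.57 and 0.48, adjusted p = 0.053 and 0.128) and was 2.06-fold higher in repopulated than in young microglia. Rpl39l, a paralog best known from testis, was at 0.676, 1.26 and 2.12 CPM on average and passed only between repopulated and young microglia (adjusted p = 0.0486), which the length offset did not keep (log2 1.25, adjusted p = 0.144).

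**Figure D3:**
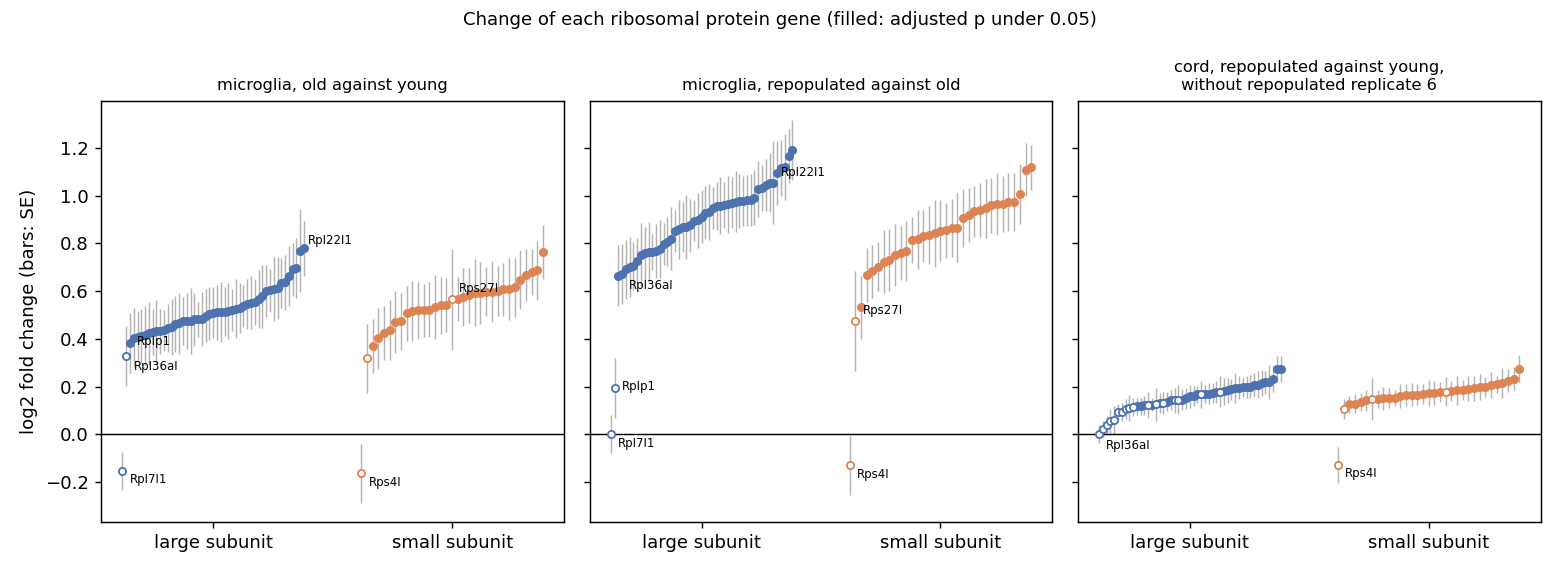
Log2 fold change of each member with a mean of at least 5 CPM, with SE bars, by subunit and sorted by size: microglia old against young, microglia repopulated against old, and cord repopulated against young without repopulated replicate 6. Filled points passed the test and open points did not; the microglia medians are 0.52 and 0.87, the cord median is 0.17, and Rpl7l1, Rplp1 and Rps4l have the lowest changes in the middle panel.

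Several measured features differed between the microglia groups, and their part in these changes was not tested. Members are short, with a median length of 821 bases against 3503 for the other genes tested, and shorter genes tended to have higher changes among those other genes (Spearman -0.13, -0.10 and -0.18 across genes for the age, repopulation and combined comparisons, a description). Among the other 1126 tested genes no longer than the upper quartile of members, a group chosen after the data were seen, the median log2 changes were 0.18, 0.18 and 0.36. When each library was given an offset that followed gene length smoothly, the members' medians became 0.30, 0.67 and 0.92, with 59, 77 and 79 of 83 members higher and 0, 0 and 1 lower. With that offset 11%, 10.6% and 16.7% of the 14382 genes tested were higher, and 21.5%, 17.8% and 32.2% were called in either direction. Neutrophil markers (10 of 10 above 1 CPM in each microglia group) summed to 226 to 1023 CPM in young libraries, 2062 to 8917 in the old group and 810.2 to 3586 in repopulated libraries. Monocyte markers (8 of 8) summed to 99.3 to 185, 408.4 to 909 and 155 to 392 CPM, and markers of cycling cells (4, 6 and 6 of 6) to 58.0 to 72.7, 88.6 to 174 and 110.1 to 248 CPM. Within the old group, replicate 8 had the highest neutrophil sum, 8917 CPM, and a ribosomal protein share of 3.57%, and replicate 7 had the lowest of both, 2062 CPM and 2.13%. Replicates 5 and 6 had low neutrophil sums too, 2126 and 2475 CPM, with shares of 3.16% and 3.36%, and replicate 4, with the highest share (4.62%), had 5991 CPM. The mitochondrial share of counts was 1.75% ± 0.257, 2.27% ± 0.232 and 2.80% ± 0.478 in young, old and repopulated microglia (n = 8 each). The mean number of genes detected was 16283, 15039.5 and 14558.5. Depth differed as well, with mean total counts of 31749224, 24868985 and 26660386, and the number of genes detected was not adjusted for it.

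Genes listed because they make ribosomal or translation proteins under other names were tested too. Fau and Rack1, which encode a small subunit protein and a scaffold on the small subunit, rose in each of the 3 microglia comparisons. Rack1 was at 492 ± 57.4 CPM in young, 779 ± 200 in old and 1585 ± 198 CPM in repopulated microglia (n = 8 each). Of 17 translation factors and related genes listed for their TOP tracts, 15 rose with age and 17 with repopulation, at median log2 changes of 0.51 and 0.86. Among all genes tested, 11% and 9.05% rose. Eef2, which drives translocation on the ribosome, rose 0.99 ± 0.07 SE on the log2 scale with repopulation (edgeR, adjusted p = 1.19e-10). Eif3f, an initiation factor subunit, rose 1.18 ± 0.09 and the poly(A) binding protein gene Pabpc1 rose 0.93 ± 0.07.

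The other parts of the ribosome pathway showed smaller medians. For scale, 11% of all 14382 genes tested rose and 10.7% fell with age. With repopulation 9.05% rose and 7.2% fell. Of 78 mitochondrial ribosomal protein genes, 2 rose and 3 fell with age, and 8 rose and 1 fell with repopulation (median log2 -0.01 and 0.14). Mrpl30 was among those higher after repopulation (log2 0.96 ± 0.15 SE, edgeR, adjusted p = 2.74e-05). Of 28 ribosome assembly genes, 1 rose and 0 fell with age, and 3 rose and 3 fell with repopulation. Pes1, a large subunit assembly factor, rose (log2 0.43 ± 0.07) while Nop56, a nucleolar RNA modification factor, fell (log2 -0.43 ± 0.10). Of 14 genes of RNA polymerase I and its factors, which transcribe ribosomal RNA, 1 rose and 2 fell with age, and 3 rose and 1 fell with repopulation, Polr1c among the latter risers (log2 0.94 ± 0.13). Of 17 genes that control TOP translation, 1 rose and 3 fell with age, and 2 rose and 2 fell with repopulation. Rptor, the mTORC1 scaffold, fell by 0.41 on the log2 scale with age, and Myc, a transcription factor that drives ribosome production, fell by 0.60 with repopulation. No test compared these lists with the members.

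In the paralog pairs, the ratio of the 2 genes within a library does not depend on library scaling. Ratios were compared with an exact two-sided permutation test over libraries (8 against 8), adjusted over the 41 tests run on 7 pairs. The Rpl7l1 to Rpl7 ratio fell at each step in microglia: per length, Rpl7l1 stood at 7.05% ± 0.510 of Rpl7 in young, 4.52% ± 0.936 in old and 2.45% ± 0.304 in repopulated libraries (SD, n = 8). The log2 differences by counts were -0.66 and -0.87, both with exact p = 0.000155, the smallest this design can give, and adjusted p = 0.000796. The groups did not overlap in either step. With the length offset, Rpl7l1 changed by log2 -0.17 with age and 0.03 with repopulation, and Rpl7 by 0.34 and 0.69. The Rpl7l1 to Rpl7 ratio was not tested with that offset. The Rps4l to Rps4x ratio fell too, from 3.84% ± 0.760 per length to 2.39% ± 0.696 and 1.29% ± 0.279 (log2 -0.70 and -0.87, exact test, adjusted p = 0.00637 and 0.00191), with overlap between neighbouring groups. In cord it was 9.37%, 7.76% and 7.46% per length in young, old and repopulated libraries. The cord log2 differences by counts were -0.27 between old and young (exact test, adjusted p = 0.00916) and -0.32 between repopulated and young (adjusted p = 0.00637), or -0.31 without replicate 6 (adjusted p = 0.0112), with overlap between the groups.

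Rpl22 and Rpl22l1 encode interchangeable proteins of the large subunit that can oppose each other in developing T cells. Per length, Rpl22l1 stood at 40.4% ± 6.49 of Rpl22 in young, 50.3% ± 15.5 in old and 55.4% ± 10.96 in repopulated microglia (n = 8). The log2 difference was 0.45 between repopulated and young libraries (exact test, adjusted p = 0.0085), while the steps with age (0.27, adjusted p = 0.335) and repopulation (0.18, adjusted p = 0.564) did not pass. With the length offset, however, Rpl22l1 and Rpl22 rose by log2 1.13 and 1.37 between repopulated and young microglia. The 2 genes rose by 0.46 each with age and by 0.67 and 0.91 with repopulation, so Rpl22l1 no longer rose more than Rpl22. The ratio itself was not tested with that offset. Old replicate 2 had the lowest Rpl22l1 share of the old group, 23.7%. In young cord, Rpl22l1 was the more abundant of the pair per length, at 155% ± 12.5 of Rpl22 (n = 8), and young microglia lay below young cord by a log2 difference of -1.95 (exact test, adjusted p = 0.000796), with no overlap.

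Rpl36al, an intronless copy of Rpl36a, fell relative to it with age in both tissues. The log2 difference was -0.32 in microglia (exact test, adjusted p = 0.0435) and -0.18 in cord (adjusted p = 0.00478), and groups overlapped in both. Between repopulated and old libraries it did not pass in microglia (-0.12, adjusted p = 0.55) or cord (-0.06, adjusted p = 0.536). Between repopulated and young cord it was lower by a log2 difference of -0.25 (exact test, adjusted p = 0.00478), or -0.20 without replicate 6 (adjusted p = 0.00833). Rps27l stood at 2.07% ± 0.311, 2.42% ± 0.393 and 1.92% ± 0.848 of Rps27 per length in young, old and repopulated microglia (n = 8), and 0 of the 3 ratio comparisons passed (exact test, adjusted p = 0.14 or above). The repopulated libraries spread from 1.16% to 3.34%. Young microglia had a lower Rps27l to Rps27 ratio than young cord (log2 -1.53, adjusted p = 0.000796), and the same held for Rps4l to Rps4x (log2 -1.30). Rpl7l1 to Rpl7 was higher in young microglia (log2 0.35, exact test, adjusted p = 0.00142).

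**Figure D4:**
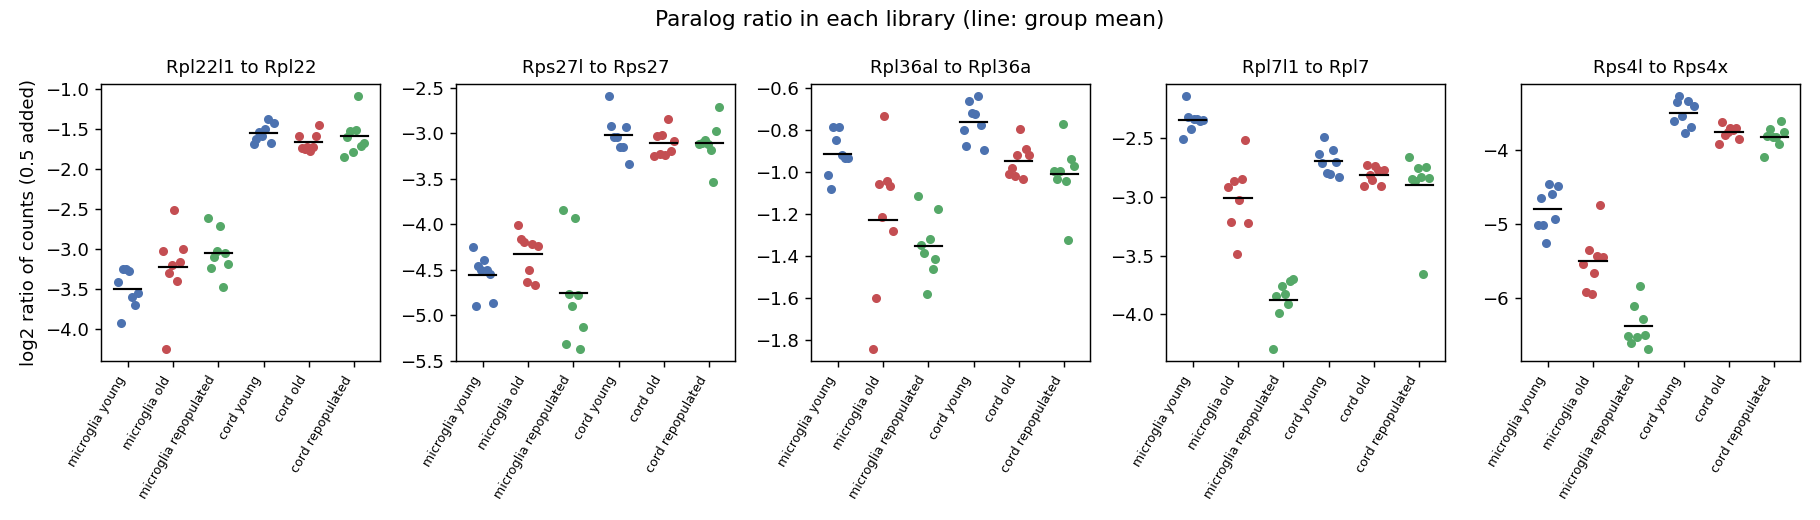
Log2 ratio of paralog to main gene counts (0.5 added to each) in every library, for 5 pairs, with lines at the group means; the scale differs between panels. Rpl7l1 to Rpl7 and Rps4l to Rps4x step down from young to old to repopulated microglia, and in cord Rps4l to Rps4x and Rpl36al to Rpl36a have lower means in old and repopulated than in young libraries.

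The tissue-restricted paralogs stayed near 0. Rpl10l, known from testis, had 0 counts in all 48 libraries. Rpl3l, known from muscle, had a mean of 0.817, 0.954 and 2.11 CPM in young, old and repopulated cord. The last mean rests on replicate 3, at 12.7 CPM, while the other 7 libraries ranged from 0.207 to 0.999 CPM. Rpl32l did not reach a mean of 1 CPM in any group.

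In whole spinal cord, all libraries in, 0 of 83 members passed between old and young (median log2 0.13; 4.88% of the 18271 genes tested rose, 1.26% fell) or between repopulated and old (median 0.39; 0.148% rose, 0% fell), and 6 rose between repopulated and young (median 0.51; 7.28% rose, 2.78% fell). At an unadjusted p under 0.05, edgeR had 0, 29 and 77 members higher and 0 lower in these comparisons, where 9.61%, 4.76% and 15.4% of genes tested were higher. DESeq2, at an adjusted p under 0.05, called 3, 0 and 33 members higher, and 5.55%, 0.339% and 8.26% of genes. The 6 were Rpl10, Rpl12, Rpl22, Rplp2, Rps12 and Rps18. With 1 library left out at a time the number ranged from 0, without young replicate 3, 6 or 7, to 61, without repopulated replicate 6. Of the 6, Rplp2 changed most (log2 0.80 ± 0.25 SE, edgeR, adjusted p = 0.0457).

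Without repopulated replicate 6 the spread between libraries shrank, with a median SE of 0.0466 in place of 0.189, and 61 of 83 members were higher in repopulated than in young cord (median log2 0.17; 9.21% of 18401 genes rose, 4.71% fell). They included 32 of 50 large and 29 of 33 small subunit genes. Between old and young cord, with the same library left out of the spread, 35 members rose and 0 fell (median log2 0.13; 7.76% rose, 3.7% fell). Between repopulated and old cord 0 members passed, also at an unadjusted p under 0.05, and the median was 0.03 (0.168% rose, 0% fell). At that unadjusted level 3.24% of genes were higher and 1.33% lower.

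The cord differences that passed were small. Rplp2 was at 75.9, 94.9 and 102 CPM in young and 98.9, 107 and 114 CPM in old cord, and at 110.3 ± 4.73 CPM in repopulated cord without replicate 6 (n = 7). Its log2 change was 0.23 ± 0.05 SE with age and 0.27 ± 0.05 between repopulated and young (edgeR, adjusted p = 0.00417 and 0.000724). Rps12 rose by log2 0.26 and 0.27 and Rpl12 by 0.23 and 0.27 in the same comparisons. Rplp1 rose in cord with age when replicate 6 was left out (log2 0.21 ± 0.05, adjusted p = 0.00256). Rpl22l1, Rps27l, Rpl36al, Rpl7l1 and Rps4l did not pass in any cord comparison, with or without replicate 6.

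In a whole tissue, fewer cells of a type and less RNA per cell cannot be told apart. Beside the cord changes, the 8 microglial markers summed to 213 to 297 CPM in young libraries, 316 to 403 in the old group and 357 to 482 in repopulated cord, and 6 Schwann cell markers to 5869 to 8941, 3595 to 6147 and 3984 to 5633 CPM. Their part in the ribosomal protein differences was not tested. In replicate 6 itself, Rplp2 stood at 500.3 CPM against 104 to 117 in the other repopulated libraries, and Rpsa at 1147 against 307 to 366. Rpl22, at 200.5 CPM against 112 to 117, and Rpl7l1, at 52.8 against 38.2 to 42.2, stood less far from the group. Members differed by length in this comparison: across the 83 members the Spearman correlation of length with the repopulated against old change was -0.41, a description.

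The differences between tissues were tested as interactions over all 48 libraries and 84 members. The test treats the libraries as independent, and the labels do not state whether microglia and cord libraries of one number share an animal. For the repopulation step, 20 members had a higher change in microglia than in cord and 0 a lower one (3.49% of 19110 genes higher, 7.54% lower). Rpl15 led them, with a log2 difference between tissues of 0.93 (edgeR, adjusted p = 9.08e-06). It stood at 122 to 233 CPM in old and 293 to 463 CPM in repopulated microglia, and at 104 to 112 and 101 to 162 CPM in the cord groups. Rpl7a (0.76) and Rpl22 (0.68) followed. Without replicate 6, 78 members had a higher repopulation change in microglia and 0 a lower one (7.01% of 19252 genes higher, 6.86% lower). For the age step, Rpl7l1 alone passed, being lower in microglia (log2 -0.28, edgeR, adjusted p = 0.0347), where 15% of genes were lower. The median over all genes in that test was -0.15, and 0 members were higher (5.44% of genes). Without replicate 6, 47 members had a higher age change in microglia and 0 a lower one (7.9% of genes higher, 8.93% lower), and Rpl7l1 no longer passed (adjusted p = 0.338). It also did not pass with DESeq2 size factors (adjusted p = 0.468), total-count scaling (0.426), a stricter filter on low counts (0.109) or a replicate block (0.0619). The 2 tissues also differ in how RNA was obtained, from sorted cells with a column kit and from whole cord with Trizol, so tissue and RNA preparation cannot be told apart.

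The pyrimidine tract was set beside the changes. The 21 tested members with a tract within 2 bases of the listed start had median log2 changes of 0.51 with age and 0.87 with repopulation in microglia, and the 41 with a listed start but no such tract had 0.56 and 0.88. The ranges of the groups overlapped, at 0.48 to 1.12 and 0.00 to 1.17 for repopulation. Near-identical processed copies of many members exist in the mouse genome, and reads shared with them may have been lost or split in counting. The 14 pseudogene and retrocopy symbols in the table held at most 0.00578% of the counts of any microglia library.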

How the data were processed

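Libraries were made from polyA RNA with a TruSeq kit that does not keep strand, per the labels' protocols, and reads were aligned with STAR 2.5.2b to GRCm38.p5, per the submitters' processing notes. For the counting tool and the annotation, the sources used here name none. The authors deposited a table of raw counts per gene with gene length, and a TPM table; the deposited TPM equal counts per length rescaled within each library, checked on the files.

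Groups come from the sample titles. The members and gene lists were chosen with earlier results of these data known. Counts were tested in edgeR 4.0.16 (quasi-likelihood, TMM scaling, filterByExpr with a minimum count of 10 and a total of 15), 1 fit per tissue over 24 libraries and 1 over 48 for interactions, with Benjamini-Hochberg adjustment over all genes tested at 0.05. SE are the unshrunk log2 change over the root of F. CPM use the TMM factors of a tissue. Paralog ratios used counts with 0.5 added and pairs averaging at least 20 counts in both groups. Named genes are, per comparison, the 4 largest called rises and falls with a mean of at least 5 CPM, the 3 interaction members on each side with the smallest adjusted p, a fixed panel, both genes of each paralog pair, members under 1 CPM throughout, and up to 3 called genes per list. Rpl4 and the outlying libraries were singled out after their values were seen, as was the group of other short genes.

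Alternatives used DESeq2 1.42.0, limma 3.58.1 on log2(deposited TPM + 1 or + 0.1), other scalings and filters, a smooth length offset fitted on other genes, a replicate block and omitted libraries. The fits were tested on simulated data. Each of 168 pairs of libraries within a group differed beyond sampling noise (chi-square per gene at least 3.40). Some individual genes are not reported here, though they remain in the counts and sums.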

Additional observations from a re-analysis of the deposited data

Results flagged for a closer look

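Among 198 sets of 8 libraries checked for a lone high or low library by Dixon's ratio, a level that chance passes in about 1 set in 20, repopulated cord replicate 6 accounted for 28 of the lone libraries. Its ribosomal protein share was 3.17% (others at most 1.28%) and its large to small ratio 1.43. Its Rpl22l1 to Rpl22 log2 ratio was -1.09 and its Rpl7l1 to Rpl7 log2 ratio -3.66. In that library the large subunit genes stood at 406.3 CPM (Rpl10), 394 (Rpl11), 928 (Rpl13a), 997 (Rpl3), 371 (Rpl5), 668 (Rpl7), 124 (Rpl39) and 237 CPM (Rpl36a). Its stalk genes stood at 486 CPM (Rplp0), 1071 (Rplp1) and 500.3 CPM (Rplp2). Rpl22 was at 200.5 CPM and the paralogs at 94.3 (Rpl22l1), 94.7 (Rpl36al), 52.8 (Rpl7l1), 31.9 (Rps27l) and 49.2 CPM (Rps4l). The small subunit genes stood at 549 (Rps14), 406.3 (Rps19), 370.4 (Rps27), 536 (Rps27a), 747 (Rps4x), 255 (Rps6) and 1147 CPM (Rpsa).

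Of the other cord libraries, repopulated replicate 3 was alone for Rpl3l, at 12.7 CPM and a log2 ratio to Rpl3 of -4.93. Old replicate 3 was the highest of its group for Rpl10 (208 CPM) and Rplp0 (264 CPM), old replicate 8 for Rpl3l (2.72 CPM) and old replicate 6 for Rps27l (15.1 CPM). Old replicate 7 was the lowest for Rps14 (150.2 CPM).

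In microglia, young replicate 7 was the highest young library in share (2.79%, others 2.11% to 2.42%), Rpl11 (298 CPM), Rplp0 (879.5 CPM) and Rplp1 (1138 CPM). Young replicate 2 was the lowest for Rpl22l1 (7.31 CPM) and for the Rpl39l to Rpl39 log2 ratio (-12.46). Old replicate 7 had the highest large to small ratio, 1.46. Repopulated replicate 1 was the highest for Rpl7 (1570 CPM) and Rplp1 (1449 CPM).

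Between tissues, tests of the difference itself found 20 members with a higher repopulation change in microglia (3.49% of all genes), led by Rpl15 (log2 0.93), Rpl7a (0.76) and Rpl22 (0.68). They found 1 member with a lower age change in microglia (15% of all genes), Rpl7l1 (log2 -0.28, where the median over all genes was -0.15). Rpl7l1 also passed with the length offset (edgeR, adjusted p = 0.0126). It did not pass without cord replicate 6 (0.338), with DESeq2 size factors (0.468), or in the other alternatives given above.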

How the results depend on the processing

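In microglia the number of members called higher stayed within 1.5 times of 77, 78 and 81 under every alternative run, and was 72 to 80, 78 and 80 to 81 with each library left out. Across these fits 7.36% to 14.8%, 3.37% to 11.7% and 8.54% to 21.9% of all genes tested were higher. Members called lower, 0 at first, came to 1 with age under limma on log2(TPM + 1) and on log2(TPM + 0.1) and to 2 under both with repopulation. Between repopulated and young microglia they came to 2 under total-count scaling and both limma fits, 1 with the length offset (Rps4l, -0.63) and 0 to 1 with each library left out. Limma on log2(TPM + 1) called 25.2%, 33.2% and 51.3% of all genes in the 3 comparisons, and only 10.3%, 3.44% and 8.6% were higher. Its medians over all genes were -0.08, -0.21 and -0.28. Total-count scaling called 38.1% of genes between repopulated and young microglia, with 12.1% higher. The reversed values were Rpl7l1 between repopulated and old microglia, at -0.25 under both limma fits (medians over all genes -0.21 and -0.27), and Rplp1 between repopulated and young microglia, at -0.18 with the length offset. The cause of each was not tested. The summed share rose 2.07-fold from young to repopulated microglia by deposited TPM against 2.39-fold by counts. Total-count scaling moved the median of all genes to -0.21 and -0.19 in the comparisons with repopulated microglia.

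In cord, members called higher between old and young (0 at first) came to 3 with DESeq2, 3 and 4 with limma on log2(TPM + 1) and log2(TPM + 0.1), 5 with the length offset and 22 with only the 2 groups compared. In that order 5.55%, 3.98%, 3.89%, 5.64% and 6.56% of all genes were higher, against 4.88% at first. Without repopulated replicate 6 the members called higher came to 35, and then to 52 with the length offset, 57 with total-count scaling and 63 with limma. Genes higher were then 7.76%, 8.24%, 9.41% and 8.8% of those tested. Between repopulated and young cord (6 at first) the members called higher came to 24 with total-count scaling, 2 with no filter on low counts, 33 with DESeq2, 35 and 34 with limma, 51 with the length offset and 0 with only the 2 groups compared. In that order 8.33%, 4.04%, 8.26%, 4.52%, 4.44%, 8.86% and 5.73% of all genes were higher, against 7.28% at first. Without replicate 6 they came to 61, and then to 67, 71 and 71 under those 3 settings, and with each library left out to 0 to 61. The settings that combine the omission of replicate 6 with another choice, and the age comparison without it, were chosen after seeing the data.

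For the age interaction, members higher and lower in microglia (0 and 1 at first) came to 6 and 0 with DESeq2 size factors, 11 and 0 with total-count scaling, 1 and 0 with a stricter filter, 13 and 1 with the length offset and 47 and 0 without replicate 6. In that order 6.96%, 6.96%, 6.27%, 6.02% and 7.9% of all genes were higher in microglia, against 5.44% at first. For repopulation, members higher and lower (20 and 0) came to 43 and 1 with the length offset, 78 higher without replicate 6, and 2 lower with total-count scaling. In that order 4.79%, 7.01% and 2.55% of genes were higher, against 3.49% at first. Total-count scaling called 17.3% of genes in either direction. Same-numbered libraries did not deviate together (correlations of -0.12 to 0.13 in microglia and -0.49 to 0.43 in cord), so the numbers were not taken to pair them. With a replicate block, 76, 78 and 81 members were higher in microglia, where 10.1%, 8.47% and 15.1% of all genes were higher. In cord 0, 0 and 0 members were higher, where 4.25%, 0.104% and 6.03% of genes were. With that block the interactions gave 1 member higher and 0 lower for age and 29 higher for repopulation. Of all genes, 4.94% and 3.43% were then higher in microglia. No call on a paralog ratio changed with another pseudocount, with TPM or without replicate 6. The deposited TPM equal counts per length rescaled within each library. Apart from the amount added, the TPM setting therefore could not change a ratio difference. The length offset was not applied to the ratios.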
